A study of Arabidopsis thaliana with 9 samples.

Results

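Leaves of an Arabidopsis line labelled calpain null were compared with wild-type leaves on 6 of the 9 ATH1 arrays of the series, 3 for each group, chosen by their titles. The calpain null line had the Col-0 background, a T-DNA knock-out of At1g55350, which is the DEK1 locus, and a transgene labelled ADEK1 calpain null. Wild type was Col-0 with neither. The remaining 3 arrays came from a line with the same knock-out and a transgene labelled as overexpressing the ADEK1 calpain, and are given only beside genes named for the null line. Seeds of all groups were stratified for 3 days at 4 °C, seedlings went to soil after 7 days and grew at 21 °C in short days, 6 plants to a pot, and leaves were taken at growth stage 1.14. What null stands for, the promoter behind the transgene, the number of independent lines and whether replicates were separate plants are not given by the labels. The knock-out and the transgene are both absent from wild type, so their effects cannot be told apart. A p-value here measures spread among these arrays only, and that spread may be technical. No probe set is paired with DEK1, so the targeted transcript is not analysed here.

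Calpains are calcium-dependent cysteine proteases. DEK1 is the plant member of the family, a large membrane protein that ends in a calpain domain and is needed to form and keep an epidermis. A leaf that grows makes many ribosomes: RNA polymerase I copies ribosomal RNA in the nucleolus, assembly factors process it, and ribosomal proteins are added to it. Surface receptor kinases and intracellular NLR proteins are the receptors through which plant cells sense microbes and damage.

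On the first principal component of the 6 arrays, which held 46.0% of the variance, calpain null arrays scored 2.15, 24.7 and 29.1 and wild-type arrays scored -26.3, -13.9 and -15.7. The calpain null array numbered 1 thus lay nearest to wild type. It also had a lower signal for the 25S ribosomal RNA control, 167, against 344 and 384 on the other calpain null arrays. Wild-type arrays had 315, 247 and 208. Wild-type array 1 had 118 for the 5S ribosomal RNA control, against 61.6 and 54.5 on the other wild-type arrays. The ratio of 3' to 5' actin control signals ran from 12.6 to 16.7 on the 6 arrays and was highest on wild-type array 1. The part of these in the results was not tested, but counts made without each array stand beside the main ones. Of 18 leaf mesophyll markers 3 had a probe set, all strongly detected, with Rubisco activase (RCA) at 5618 ± 598 in calpain null and 5277 ± 474 in wild-type leaves (SD, n = 3 each). The root marker PYK10 had 34.3 ± 25.9 and 25.9 ± 15.2. In whole leaves, fewer cells of a type and less RNA per cell cannot be told apart.

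Of 13790 probe sets tested, 272 passed limma's test at 0.05 after Benjamini-Hochberg adjustment, 124 higher and 148 lower in calpain null leaves, which is 1.97% of those tested. Rises were 0.899% and falls 1.07% of those tested. Of the tested probe sets 7506 had 1 listed gene, and 121 of the called ones did, 50 higher and 71 lower. An unadjusted p under 0.05 was reached by 2686. In all 272 the calpain null and wild-type arrays did not overlap, which was true of 24.7% of all tested. Rises were larger than falls: the median log2 fold change was 0.89 among the called rises and -0.71 among the called falls, and 53 rises and 27 falls were at least 2-fold. Of the 272, 18 reached the filter signal of 17.6 in only 1 of the 2 groups, so they were tested because that group was high, and their folds depend on the pseudocount.

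The number of calls rested on the fit and on single arrays. With all 9 arrays in 1 fit, which shares the spread of the overexpressing line, 8 probe sets were called. Without the calpain null array numbered 1 there were 1116 calls, 258 of the 272 among them, and leaving out array 2 or 3 of that group gave 78 or 25. Leaving out wild-type array 1, 2 or 3 gave 27, 38 or 21.

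**Figure D1:**
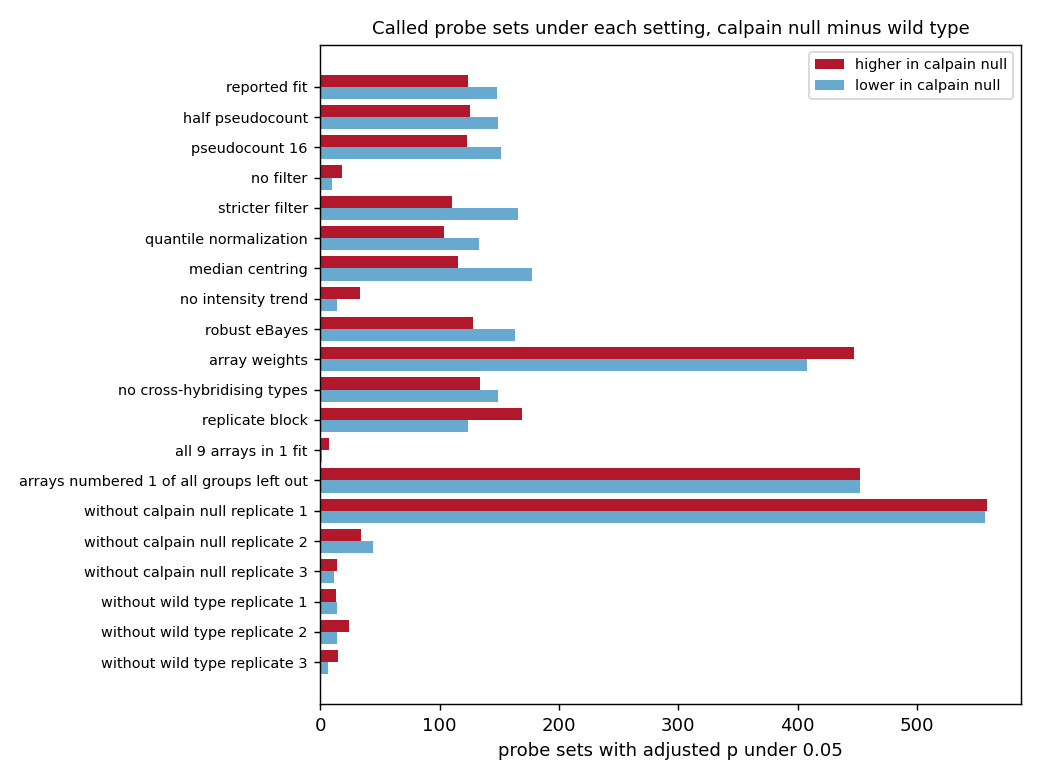
Bars give the number of probe sets with an adjusted p under 0.05 in calpain null against wild-type leaves, higher and lower, for the reported fit and each alternative. The total was 272 in the reported fit, 1116 without the calpain null array numbered 1, and 8 with all 9 arrays in 1 fit.

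Of the 121 called genes, 4 were called under every alternative that tested them, and 2 of these encode surface receptors. AT1G35710, which encodes a leucine-rich repeat receptor kinase, had signals of 79.5, 77.1 and 88.2 in calpain null leaves, against 20.3, 27.8 and 27.0 in wild-type leaves. Every calpain null array lay more than 2-fold above every wild-type array, and the log2 fold change was 1.58 (SE 0.16, limma adjusted p = 0.00386). AT4G08850, of the same receptor family, had 240, 301 and 289 in calpain null leaves, against 115, 127 and 120 in wild-type leaves. The groups were well separated, the log2 difference being 1.17 (SE 0.12, adjusted p = 0.00386). Overexpressing leaves had 27.9 ± 5.37 for AT1G35710 and 112 ± 24.5 for AT4G08850 (SD, n = 3), and the difference of calpain null from overexpressing leaves was called for both where 0.523% of probe sets were, at 1.44 (adjusted p = 0.004) and 1.29 (adjusted p = 0.0041).

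These 2 were the only called members of 60 leucine-rich repeat receptor kinases tested, of 119 with a probe set, none of which was called lower. That is 3.33% called higher, against 0.899% of all tested probe sets. At an unadjusted p under 0.05, 9 were higher and 5 lower, where 10.2% of all tested probe sets were higher and 9.27% lower. The list's median log2 fold change was 0.02, against 0.01 over all tested probe sets. Of 6 tested lectin-type kinases and related receptors (21 with a probe set), 2 were called higher, AT4G27300 and AT1G11330, where 0.899% of all tested probe sets were. AT4G27300, an S-locus lectin kinase, had 52.0, 110 and 72.9 in calpain null leaves, against 22.5, 24.4 and 25.4 in wild-type leaves. Its lowest calpain null array was the one numbered 1, and all 3 exceeded wild type (log2 fold change between 0.98 and 2.03 at 95% confidence, adjusted p = 0.0203). Its level in overexpressing leaves was 86.9 ± 47.7, and its difference from them, -0.01, was not called. AT1G11330 had 59.7, 113 and 99.1 in calpain null and 31.4, 32.7 and 51.7 in wild-type leaves (1.15, SE 0.25, adjusted p = 0.0468).

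AT3G04210, which encodes a TIR-NBS protein and was chosen after its values were seen, is not on the list of intracellular NLR proteins and had 142, 103 and 104 in calpain null and 48.0, 53.4 and 60.9 in wild-type leaves (log2 fold change 1.05, adjusted p = 0.0203). That list was chosen with earlier results of these data known, so its counts describe these data only. Of the NLR list 28 genes were tested, of 95 with a probe set, and all 28 missed the threshold. The nearest was AT1G63880, at 88.9, 103 and 115 in calpain null and 64.0, 69.5 and 63.1 in wild-type leaves (0.61, adjusted p = 0.0512). Of the 28, 11 were higher and none lower at an unadjusted p under 0.05, where 10.2% of all tested probe sets were higher and 9.27% lower. The list's median log2 fold change was 0.40, and 0.27 over all 95 without a filter on low signals. Its median difference from the wild-type mean was 0.46, 0.17 and 0.38 on the 3 calpain null arrays and 0.04, 0.07 and -0.06 on the wild-type arrays.

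Among probe sets with a listed gene, the largest named rise was that of IAA29, an Aux/IAA gene whose product represses auxin responses and is itself induced by auxin. Its signals were 17.9, 138 and 153 in calpain null leaves, against 9.21, 4.05 and 8.77 in wild-type leaves. The calpain null array numbered 1 was near wild type and the others far above, and the log2 fold change was 2.87 (SE 0.62, adjusted p = 0.0467). All wild-type values lay below the filter signal, so IAA29 was tested through the calpain null group alone and the fold depends on the pseudocount. IAA29 was called in 5 of the 14 alternatives that tested it. It was the only called gene of 6 auxin genes tested, of 17 with a probe set. Over all 17 without a filter on low signals, the median log2 fold change was 0.01 and 0 were called. Named after their values were seen, WES1, a GH3 enzyme that conjugates auxin, had 45.4, 84.9 and 152 in calpain null and 27.3, 29.6 and 33.4 in wild-type leaves (1.38, adjusted p = 0.063), and HAT2, an auxin-inducible homeodomain gene, had 48.7, 114 and 103 against 34.2, 49.7 and 48.1 (0.88, adjusted p = 0.122). Neither was called, and the groups overlapped for HAT2.

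Genes of small-molecule and lipid metabolism moved in both directions. The lipid-transfer-type gene AT5G55450 had 1396, 1586 and 1673 in calpain null leaves, against 451, 716 and 699 in wild-type leaves. It was higher on every calpain null array than on any wild-type array (1.34 on the log2 scale, SE 0.17, adjusted p = 0.00642) and was called under all 19 alternatives. The cytochrome P450 genes CYP71B22 and CYP71B5 were the 2 called of 8 tested, of 24 with a probe set. Both were higher, where 0.899% of all tested probe sets were called higher. CYP71B22 had 287 ± 158 in calpain null and 70.8 ± 18.6 in wild-type leaves (1.83, adjusted p = 0.0391), and CYP71B5 had 50.1, 54.0 and 51.4 against 27.2, 34.7 and 26.9 (0.75, adjusted p = 0.0487). Of 23 UDP-glycosyltransferases tested, of 50 with a probe set, 1 was called in each direction. Of all tested probe sets 0.899% were called higher and 1.07% lower. UGT72E1, which glucosylates phenylpropanoids, had 64.7 ± 21.2 in calpain null and 22.7 ± 0.821 in wild-type leaves (1.33, adjusted p = 0.0215). UF3GT, which adds a sugar to anthocyanins, had 5.64, 7.27 and 5.81 in calpain null leaves, against 33.2, 28.0 and 29.0 in wild-type leaves. Calpain null levels lay below the filter signal of 17.6, where the fold depends on the pseudocount (log2 fold change -1.77, SE 0.24, adjusted p = 0.00981).

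Single genes of other functions rose. RING1, a RING-type ubiquitin ligase, had 52.7 ± 3.97 in calpain null and 24.5 ± 4.43 in wild-type leaves (log2 fold change 1.01, adjusted p = 0.0253). It was the 1 called of 23 ubiquitin ligases tested, where 0.899% of all tested probe sets were called higher. AT4G38550 had 173, 212 and 162 in calpain null and 43.6, 62.9 and 70.0 in wild-type leaves (1.59, adjusted p = 0.00528), from a probe set type that may read related transcripts. AT1G01240 had 171, 226 and 193 in calpain null leaves, against 96.1, 83.9 and 76.9 in wild-type leaves (1.16, SE 0.14, adjusted p = 0.00642), and was called under all 19 alternatives. The remaining named rises were AT5G44580 (2.01), AT3G60420 (1.92), AT2G24600 (1.48), AT1G78460 (1.28), AT1G25275 (1.18) and AT2G25510 (1.15), with adjusted p from 0.0203 to 0.0403. Among these, AT3G60420 lay below the filter signal on all wild-type arrays.

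Because DEK1 is a cysteine protease, 2 called papain-type cysteine protease genes are given too. They were chosen after their values were seen, so they stand for no family. CP5 had 2488 ± 373 in calpain null leaves, against 1573 ± 37.4 in wild-type leaves (log2 fold change 0.65, SE 0.11, adjusted p = 0.0246). AT4G16190 had 760, 764 and 811 in calpain null and 447, 562 and 573 in wild-type leaves (0.57, SE 0.12, adjusted p = 0.0395). Neither gene's groups overlapped. CP5 and AT4G16190 are not on the list of proteases and inhibitors. Of the 19 genes of that list that were tested, none was called, and their median log2 fold change was 0.15. At an unadjusted p under 0.05, 2 of the 19 were higher and 1 lower, where 10.2% of all tested probe sets were higher and 9.27% lower.

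**Figure D2:**
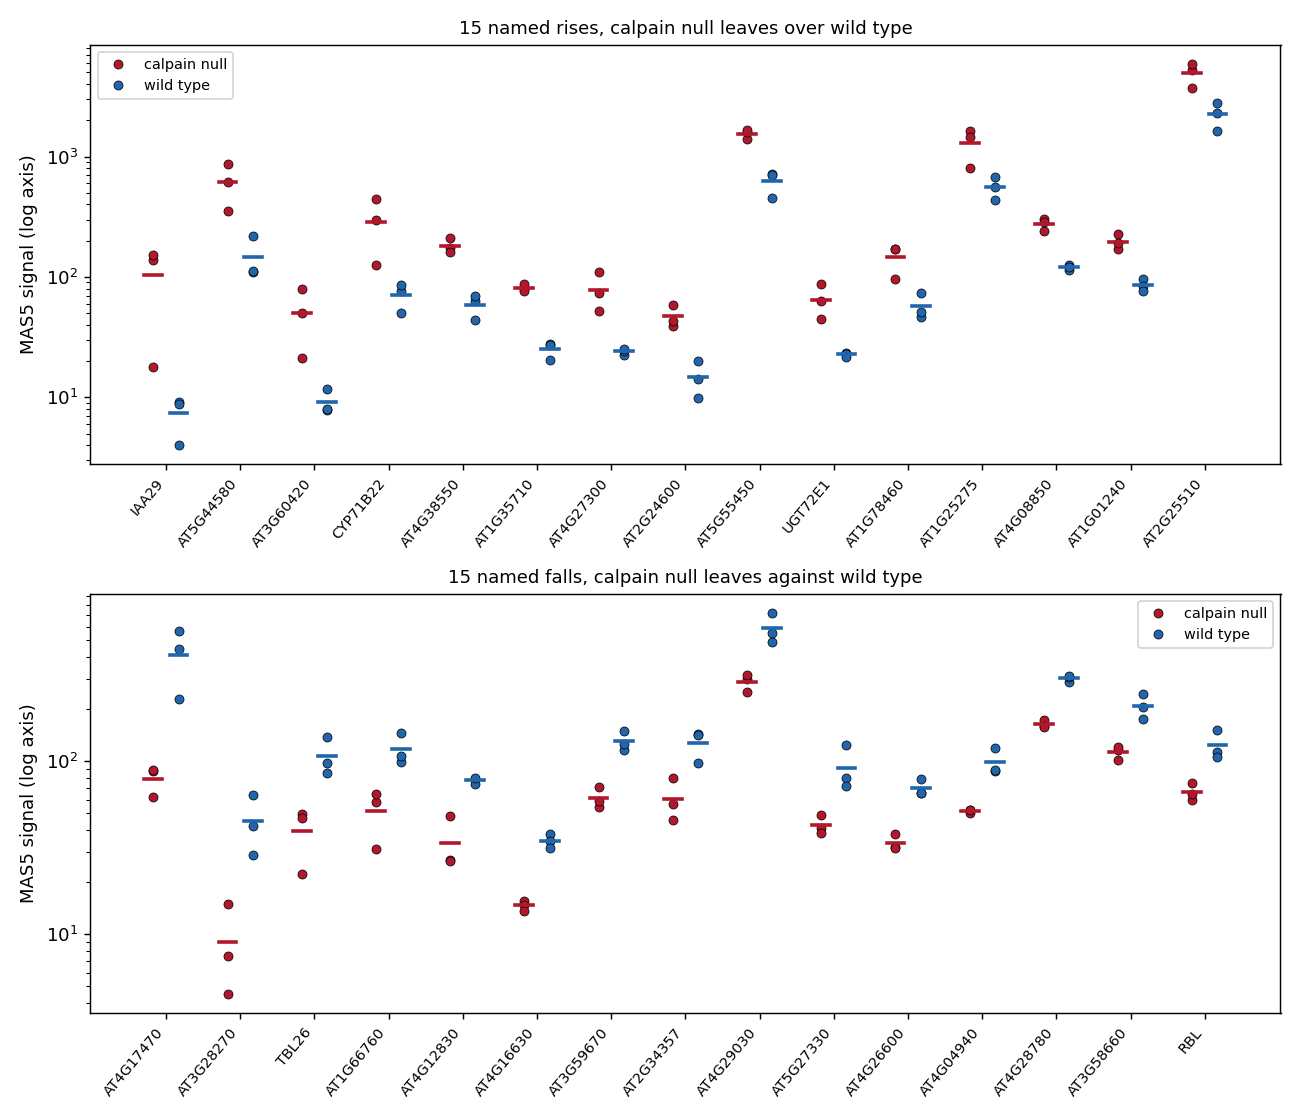
Points are the MAS5 signals of the 3 calpain null and 3 wild-type arrays on a log axis for the 15 named rises and 15 named falls, and bars are group means. Genes were chosen so that the groups do not overlap, and the calpain null array numbered 1 is the lowest of its group for IAA29, at 17.9.

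The largest named fall was AT4G17470, of the palmitoyl protein thioesterase family, which had 87.5, 89.0 and 62.2 in calpain null leaves, against 228, 570 and 444 in wild-type leaves. The highest calpain null array was under the lowest wild-type array (log2 fold change -2.25, SE 0.28, adjusted p = 0.00648). Overexpressing arrays had 272, 54.5 and 186. AT3G28270 had 15.1, 7.54 and 4.53 in calpain null and 63.7, 28.8 and 42.5 in wild-type leaves (-1.96, adjusted p = 0.0268), with the calpain null values below the filter signal.

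Several genes of transport, walls and secreted enzymes fell. TBL26, of the TBL family that acetylates wall polysaccharides, had 49.6, 47.2 and 22.4 in calpain null and 85.4, 97.8 and 138 in wild-type leaves (log2 fold change -1.39, adjusted p = 0.035), 1 of 17 tested in its family. AT1G66760, a MATE-type exporter, had 58.5, 64.5 and 31.3 against 99.5, 108 and 146 (-1.18, adjusted p = 0.0403), 1 of 15 tested. The GDSL-type lipase gene AT4G28780 had 173, 160 and 158 in calpain null leaves, against 288, 306 and 311 in wild-type leaves. The arrays of each group lay close together and far from the other group (-0.87, SE 0.11, adjusted p = 0.00642). Another lipase of this type, AT3G48460, was also called lower (-0.54, adjusted p = 0.0453), 2 of 27 tested, and none was called higher. Of all tested probe sets 1.07% were called lower, so these are few calls in small lists and not results about whole families. None of 51 pectin-related genes, 9 expansins and 14 cellulose and hemicellulose genes tested was called.

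Some genes of the cytosolic ribosome fell. Like the other function lists, that of ribosomal proteins was chosen with earlier results of these data known. Its counts therefore describe these data only. Of 115 cytosolic ribosomal protein genes tested, of 125 with a probe set, 11 were called lower and none higher, which is 9.57% of them against 1.07% of all tested probe sets called lower. Of the 115, 103 had a log2 fold change below 0, as did 48.2% of all tested probe sets, and 49 were lower and 1 higher at an unadjusted p under 0.05. The list median was -0.21, and its members ran from -0.79 to 0.87. AT2G32220, a large-subunit protein gene, had 63.4 ± 5.16 in calpain null leaves, against 113 ± 11.9 in wild-type leaves (-0.79 on the log2 scale, SE 0.13, adjusted p = 0.0224). AT3G16780 had 404, 352 and 340 in calpain null and 636, 536 and 556 in wild-type leaves (-0.65, adjusted p = 0.0245). AT2G37600 had 294, 274 and 239 against 429, 384 and 430 (-0.62, adjusted p = 0.0289), and AT2G39390 had 492, 449 and 474 against 793, 684 and 650 (-0.58, adjusted p = 0.0289). In these 4 genes every calpain null array lay under every wild-type array.

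The median difference of the 115 from the wild-type mean was -0.25, -0.21 and -0.21 on the calpain null arrays and 0.12, -0.06 and -0.07 on the wild-type arrays. The calpain null array numbered 1 was thus as low as the others. Wild-type array 1 was the highest of its group, and without it the list median was -0.15. The calls did not survive leaving out an array other than the calpain null array numbered 1: there were 24 without that array, where 4.1% of all tested probe sets were called lower, and 0 without any 1 of the other 5 arrays and in the fit of all 9. In those fits 0.324% and 0.081% of all probe sets were called lower when calpain null array 2 or 3 was left out, 0.103%, 0.103% and 0.044% without the wild-type arrays, and 0.00707% with all 9. Ribosomal proteins have near-identical gene copies, so a probe set may read more than the gene it is listed for.

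A list of ribosome assembly factors and RNA polymerase I subunits was drawn up after the called genes had been seen, so its counts describe those genes and support nothing. Of 58 tested, 20 were called lower and none higher, where 1.07% of all tested probe sets were called lower, with a median log2 fold change of -0.52. AT4G26600, which encodes a NOP2-type ribosomal RNA methyltransferase, had 38.1, 31.8 and 31.6 in calpain null leaves, against 79.1, 65.5 and 65.7 in wild-type leaves (-0.98, SE 0.15, adjusted p = 0.0203). AT4G28450 (-0.79, adjusted p = 0.0203), AT3G18600 (-0.74, adjusted p = 0.022) and AT4G04940 (-0.88, adjusted p = 0.0233) were next by p. AT4G16630, a DEAD-box RNA helicase gene, had 15.6, 14.7 and 13.7 against 37.8, 34.4 and 31.6 (-1.06, adjusted p = 0.0284); its calpain null values lay below the filter signal, so it was tested through the wild-type group alone. The nucleolar protein genes RBL and YAO had 66.4 ± 7.81 and 97.0 ± 7.98 in calpain null leaves, against 124 ± 24.9 and 155 ± 10.6 in wild-type leaves (-0.85 and -0.66, adjusted p = 0.031 and 0.029). NRPA1, the largest subunit of RNA polymerase I, had 84.4, 76.5 and 67.4 in calpain null and 124, 121 and 108 in wild-type leaves, and the groups did not overlap (-0.61, SE 0.13, adjusted p = 0.0479). No assembly gene of the 58 was called without any 1 of the 5 arrays other than the calpain null array numbered 1, without which 31 were.

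PPR596, a pentatricopeptide repeat gene of organelle RNA processing, had 151, 146 and 168 in calpain null and 302, 253 and 232 in wild-type leaves (log2 fold change -0.74, SE 0.13, adjusted p = 0.0236). EIF4A-2, an RNA helicase of translation initiation, had 878, 752 and 802 in calpain null and 1054, 1185 and 1136 in wild-type leaves (log2 fold change -0.47, SE 0.10, adjusted p = 0.0444). It was the 1 tested gene of the list of translation, where 1.07% of all tested probe sets were called lower, so its call describes this gene only. EIF4A-2 was not called with all 9 arrays in 1 fit, with no filter or with a replicate block. Leaving out any array other than the calpain null array numbered 1 also lost the call. The other named falls were AT4G12830 (-1.17), AT3G59670 (-1.05), AT2G34357 (-1.04), AT4G29030 (-1.01), AT5G27330, AT4G04940 (-0.88) and AT3G58660 (-0.86), with adjusted p from 0.0144 to 0.0391.

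**Figure D3:**
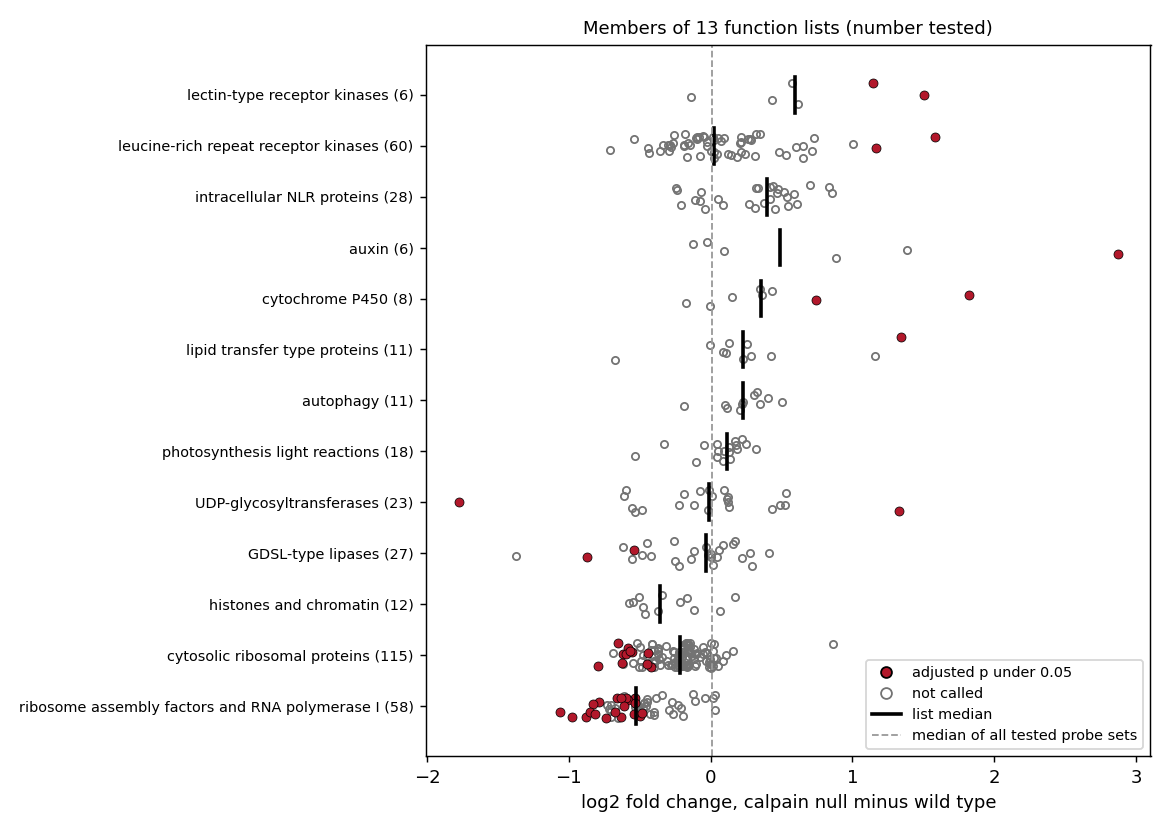
Each point is the log2 fold change, calpain null minus wild type, of a tested member of 13 function lists, filled where called, with the list median as a bar. Ribosomal protein and assembly genes sit to the left, with medians of -0.21 and -0.52, and NLR genes sit to the right at 0.40 with none called. The assembly list was drawn up after the called genes had been seen, so its place supports nothing.

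Set against the same wild-type arrays, the ribosomal proteins had a median log2 difference of -0.21 in calpain null and -0.20 in overexpressing leaves. The assembly list had -0.52 in calpain null and -0.33 in overexpressing leaves. That list was drawn up after the called genes had been seen, so its 2 medians support no difference between the lines. No gene of either list was called for calpain null minus overexpressing, where only 0.523% of all tested probe sets were. The overexpressing array numbered 1 had a ribosomal protein median of -0.02, and those numbered 2 and 3 had -0.27 and -0.30. For the NLR list the median was 0.40 in calpain null and 0.04 in overexpressing leaves. The median of its members' differences between the 2 lines was 0.23. No member was called for that difference, against the same 0.523% of all tested probe sets. Both lines are set against 1 set of wild-type arrays, so these values are not independent.

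**Figure D4:**
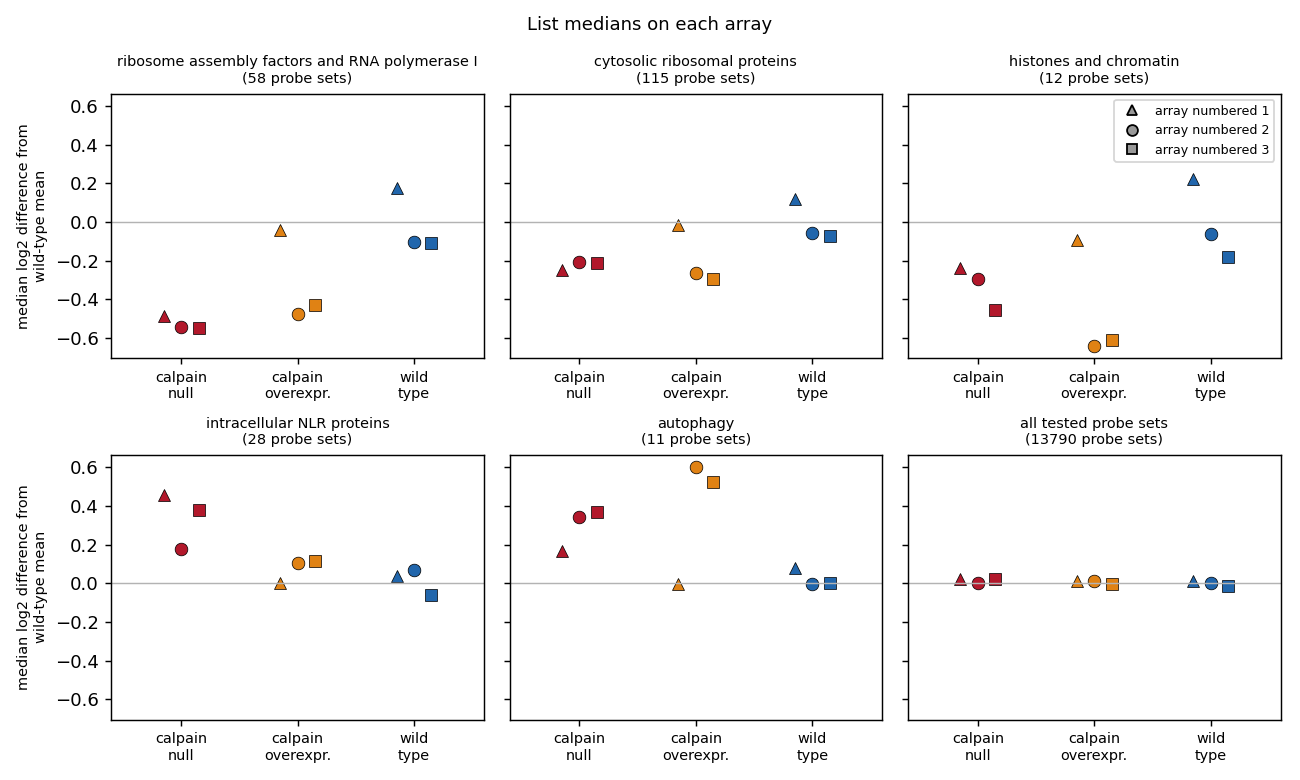
Each symbol is an array's median log2 difference from the wild-type mean over the members of a list, for calpain null, calpain overexpressing and wild-type leaves. All 3 calpain null arrays lie between -0.25 and -0.21 for ribosomal proteins, while the overexpressing array numbered 1 lies at -0.02.

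Several other functions showed no called gene. Of 11 autophagy genes tested, 5 were higher at an unadjusted p under 0.05 and none lower, where 10.2% of all tested probe sets were higher and 9.27% lower, with a median log2 fold change of 0.23. ATG8F, a ubiquitin-like protein of autophagosomes, had 416, 536 and 582 in calpain null leaves, against 345, 349 and 372 in wild-type leaves (0.51, adjusted p = 0.0747). Of 12 histone and chromatin genes, 5 were lower at that threshold and none higher, against the same 9.27% and 10.2% of all. HTB11, a histone H2B gene, had 397, 332 and 315 in calpain null and 475, 481 and 480 in wild-type leaves (-0.46, adjusted p = 0.0639), and without wild-type array 1 the list median was -0.18, against -0.35 with it. The members with the smallest p on several lists of immune, ethylene and stress genes were not called either, and those given next all rose. Single members of other lists were lower at an unadjusted p under 0.05, where 9.27% of all tested probe sets were lower and 10.2% higher. Of 8 abscisic acid, cold and drought genes tested, 2 were lower and 0 higher, but the list median was 0.01. Of 5 glucosinolate genes 2 were lower and 0 higher, with a median of -0.17. Of 3 jasmonate genes 1 was lower and 0 higher, but the median was 0.09. The list of 3 immune receptors that holds EFR had a median log2 fold change of 0.02. EFR, the receptor kinase gene for bacterial elongation factor, had 36.2, 29.3 and 29.5 in calpain null and 14.5, 22.2 and 22.9 in wild-type leaves (0.60, adjusted p = 0.168). BIK1, a cytoplasmic kinase downstream of immune receptors, had a log2 fold change of 0.43 (adjusted p = 0.2) and SAG101, a partner of EDS1 in immunity, of 0.67 (adjusted p = 0.152). EIN3, the transcription factor of ethylene responses, had 329, 343 and 396 in calpain null leaves, against 271, 268 and 259 in wild-type leaves (0.41, adjusted p = 0.0769). BZIP60, a transcription factor of endoplasmic reticulum stress, had 98.0, 149 and 123 against 90.4, 82.1 and 74.2 (0.55, adjusted p = 0.104). These groups did not overlap for EFR, EIN3 and BZIP60, as for 24.7% of all tested probe sets.

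None of 18 photosynthesis genes was called, and their median was 0.11. Of 6 tested genes of the epidermis, stomata and trichomes, 3 were above and 3 below 0, with a median of 0.003. The 1 with the smallest p, SPCH, which starts the stomatal lineage, had 102 ± 10.1 in calpain null and 136 ± 12.0 in wild-type leaves (-0.40, adjusted p = 0.131). The guard cell marker FAMA had 57.9 ± 8.17 and 59.4 ± 7.60 (-0.04, adjusted p = 0.93). The epidermal receptor kinase gene CR4 had 39.6 ± 9.66 and 38.2 ± 8.47 (0.04, adjusted p = 0.943), a difference smaller than the spread between arrays.

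Of the probe sets with no listed gene, the 2 rises and 2 falls with the smallest p are given by ID. Probe set 259646_at had 1992, 2259 and 2272 in calpain null leaves, against 122, 106 and 110 in wild-type leaves, or 4.23 on the log2 scale (SE 0.11, adjusted p = 1.17e-08). Overexpressing leaves had 1747 ± 141, and their difference from calpain null leaves, 0.32, was not called (adjusted p = 0.257). Whether 259646_at reads the DEK1 transcript or the transgene was not tested. Probe set 259561_at had 190, 218 and 223 in calpain null and 57.0, 61.6 and 75.9 in wild-type leaves (1.65, adjusted p = 0.00148), with 70.9 ± 36.7 in overexpressing leaves. The falls were 259878_at, at 21.5 ± 6.45 in calpain null and 113 ± 22.0 in wild-type leaves (-2.24, adjusted p = 0.00294), and 249732_at, at 79.4 ± 20.7 and 277 ± 55.7 (-1.77, adjusted p = 0.0052).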

How the data were processed

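The deposited intensity values are MAS5 signals made in GCOS, per the submitters' processing notes. The trimmed mean was 100 on every array, so each difference is measured against the other signals of an array. Per the labels' protocols, a Qiagen kit gave the RNA and labelling took one cycle. Probe sets were named by the platform annotation and TAIR10.1 RefSeq: 13513 have 1 gene, of which 13436 matched, 503 have several and 8730 none. Signals were taken as log2(signal + 3.63) and tested where at least 3 of the 6 arrays reached 17.6, the table's 40th percentile, leaving out 64 controls. Models of both groups used limma (3.58.1, under R 4.3.3) with an intensity trend, and figures drawn with matplotlib 3.10.9 in Python 3.11.15. Differences from overexpressing leaves came from 1 fit of all 9 arrays. On simulated data for calpain null minus wild type over 13790 probe sets, 66 of 100 2-fold and 98 of 100 4-fold changes were recovered, with 11 false calls. The number of arrays limits the precision.

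Named genes were up to 15 rises and 15 falls of largest fold among called single-gene probe sets with no overlap of the groups and a higher mean of at least 34.4, plus members of 67 function lists (every called one, up to 4 where more than 6 were called, the lowest p where none was) and 2 unlisted probe sets per direction. The members and lists were chosen with earlier results of these data known; some lists, by locus, rest on family knowledge rather than the files, and the rule was applied to them too. Alternatives covered pseudocount, filter, normalization, trend, robust fit, weights, probe set types, replicate block, array subsets and the 9-array fit.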

Additional observations from a re-analysis of the deposited data

How the results depend on the processing

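For calpain null minus wild type, 272 probe sets were called. The count became 28 with no filter, 47 with no intensity trend, 855 with array weights, 8 with all 9 arrays in 1 fit and 904 once every group lost its array numbered 1, and ran from 21 to 1116 when 1 array was left out. For calpain null minus calpain overexpressing, 74 were called in the fit of 9 arrays, with 24 in a fit of the 6 arrays, 351 without the arrays numbered 1, and 22 to 153 with 1 array left out. The cause was not tested. Whether the replicate numbers pair the samples was not settled. Deviations of same-numbered calpain null and wild-type arrays correlated at -0.01, -0.11 and -0.13. So few arrays per group cannot decide the question, and these correlations did not cover the overexpressing arrays. With the replicate number as a block, 293 and 187 were called, against 272 and 74 without it. Across 95 named probe sets and 1747 comparisons with an alternative, 1411 kept their side of the threshold, 279 lost the call, 55 gained it and 2 changed sign: AT5G48570, which ran from -0.083 to 0.037 with 1 array left out, and HRGP1, at -0.092 without the arrays numbered 1. Neither of these was called. Of the 272, 8 were called under every alternative that tested them, 4 of them with 1 gene.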
